A study of Mus musculus with 16 samples.

Results

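The genes described here are 40 interferon-induced genes, taken by name from a list of symbols and found as 40 rows among the 35647 genes of the deposited table. By gene family, 10 were treated as type I-like (the Ifit, Oas, Oasl and Mx members), 10 as gamma-like (the Gbp and immunity-related GTPase members with Tgtp1 and Cxcl9) and 20 as other members. All 40 were at 1 CPM (estimated counts per M, or mega, counts of the library, scaled by TMM normalization factors) or above in every library, and all 40 entered every test. RNA had been sequenced in bulk from 16 libraries of cells of the lamina propria, the tissue under the gut epithelium, of colon and ileum. The mice were of wild-type genotype and had been reared germ-free in isolators. They had then carried a single bacterium for 5 weeks in gnotobiotic cages, either wild-type (WT) Bifidobacterium breve or its Δchat strain, which makes no acetylcholine. The cells had been enriched with Percoll of 40% and 80%, so that each library mixed many kinds of cell. Each of the 4 groups, colon WT, colon Δchat, ileum WT and ileum Δchat, held 4 libraries from 4 mice, and colon and ileum of the same number were taken as the same mouse. Mouse strain, sex and age were not given in the sources used here.

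Interferons are cytokines that switch on antiviral and antimicrobial genes in nearly every cell type. Type I interferons (interferon beta and the interferon alphas) signal through Ifnar1 and Ifnar2 to Jak1 and Tyk2. These kinases activate a complex with Stat2 and Irf9 in it that binds the interferon-stimulated response element (ISRE). Interferon gamma, made mainly by T and NK cells, signals through Ifngr1 and Ifngr2 to Jak1 and Jak2. The DNA element of that pathway is the gamma-activated site (GAS). Many genes answer both cytokines, so the class names used here describe gene families and not the cytokine that acted in these mice. In the gut mucosa these programs are known for tonic expression that the microbiota helps to set.

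The libraries held between 15.9 and 23.6 M estimated counts. The colon Δchat library of replicate 3 stood apart with 3485 CPM summed over 12 epithelial markers, against 45.6 to 435 CPM in the other 15 libraries. In colon all 4 Δchat libraries (245 to 3485 CPM) lay above all 4 WT libraries (45.6 to 211 CPM) in this sum. Stromal and endothelial markers summed to between 2224 and 7727 CPM, so RNA of other than immune cells was present. With the epithelial score (mean log2 CPM of these markers) as a covariate, 39 members were called between tissues and 0 between strains, the same counts as without it. In colon that score ran from 1.08 to 3.10 with WT and from 3.32 to 6.96 with Δchat, without overlap. Its part and that of the strain therefore cannot be told apart in colon.

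Ileum carried more RNA of nearly the whole set than colon. Over both strains, 39 of the 40 members were higher in ileum and 0 were lower at an adjusted p under 0.05 (edgeR quasi-likelihood test, Benjamini-Hochberg over the 15198 genes tested), where 18.5% of all genes tested were higher and 19.7% lower. The median log2 fold change, ileum over colon, was 0.90 over all 40 members, 1.14 over the 10 type I-like and 1.04 over the 10 gamma-like members, beside -0.04 over all genes tested. All 8 ileum libraries lay above all 8 colon libraries for 24 of the 40 members, against 4.38% of all genes tested, and all 8 lay below for 0 members, against 2.29%. In bulk RNA, fewer cells of a type and less RNA per cell cannot be told apart, here and below. The largest differences were those of Cxcl9 (6.75-fold), Cxcl10 (4.58-fold) and Ifit1 (3.09-fold), and the exception to the pattern was Ifi27l2a (1.05-fold).

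**Figure D1:**
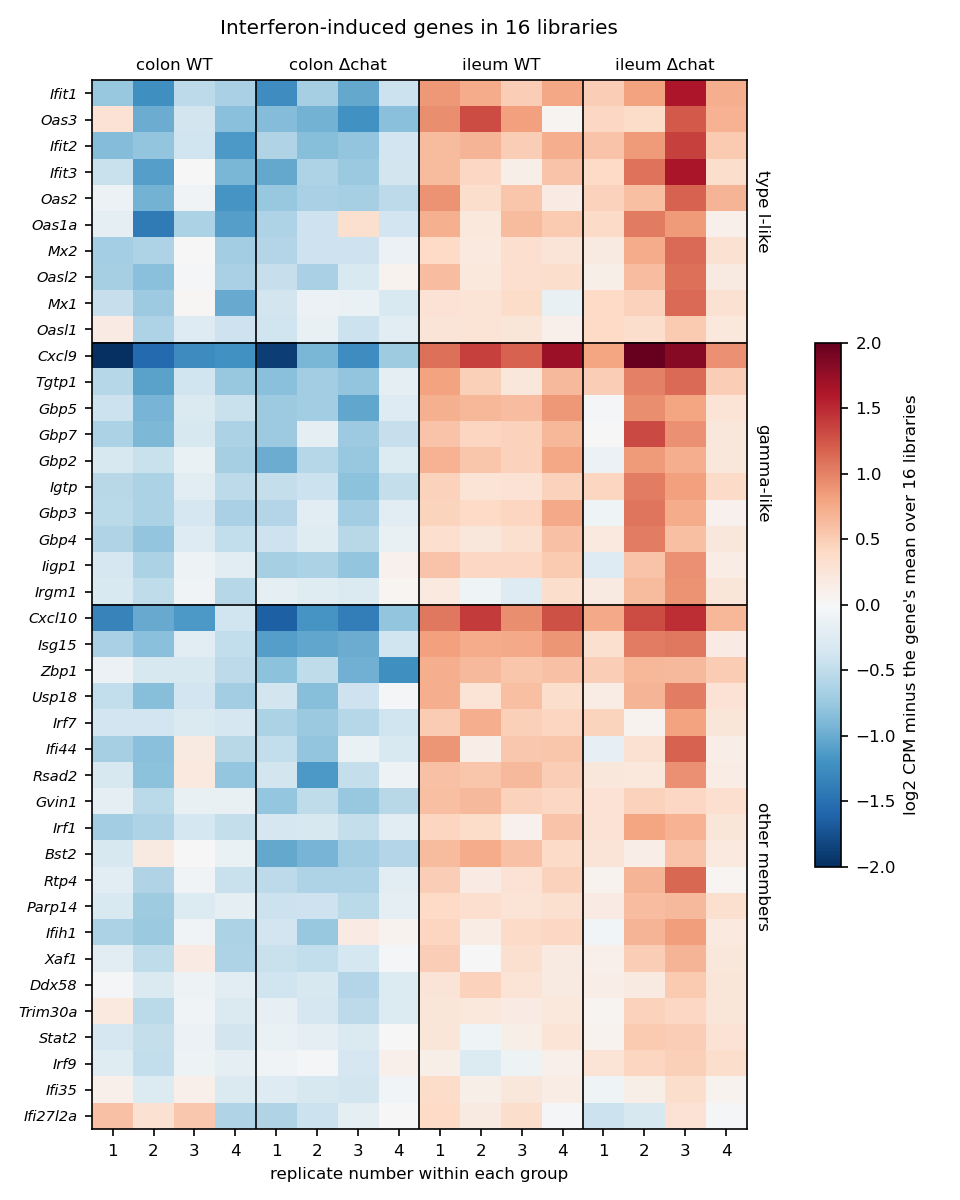
Heat map of the 40 members (rows, in classes) in the 16 libraries (columns, in the 4 groups). Colour shows the log2 CPM of each library minus the member's mean over all libraries. The ileum columns all stand above the colon columns in 24 of the 40 rows, for Cxcl9 from 46.8 to 116 CPM against 5.79 to 16.4 CPM. Among ileum Δchat libraries, replicate 1 is the lowest for 26 of the 40 members and replicate 3 the highest for 27.

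The promoters of these genes were searched for the cores of the ISRE and the GAS, the elements through which the pathways act, and the stretches that hold them are shown for members of each class. RefSeq windows (GRCm38.p6) from 250 bases before to 50 bases after the gene start matched 29 of the 40 members by symbol. Those not matched were Oas2, Mx1, Mx2, Gbp4, Iigp1, Zbp1, Usp18, Rtp4, Gvin1, Parp14 and Ifi27l2a. The ISRE core was searched on both strands as GAAA, any 2 bases and GAAA. The GAS core was searched as TTCNNNGAA, which is its own reverse complement, and both motifs may share bases. The ISRE core was in 19 of the 29 members (65.5%) against 3.99% of the 27025 genes with such a window, and the GAS core in 9 (31%) against 9.55%. A match is a run of letters and not a measured binding site. The type I-like windows shown here are those of Ifit1 (chr19:34640770-34640828, plus strand), Ifit3 (chr19:34583358-34583431, plus strand) and Oas3 (chr5:120777710-120777749, minus strand), with Isg15 (chr4:156200860-156200911, minus strand) beside them. Each stretch is written 5′ to 3′ on the gene's own strand, with the motif cores in capitals.
Ifit1: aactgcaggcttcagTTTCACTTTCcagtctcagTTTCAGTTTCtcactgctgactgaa
Ifit3: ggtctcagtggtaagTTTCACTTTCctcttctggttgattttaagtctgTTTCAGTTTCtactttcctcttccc
Oas3: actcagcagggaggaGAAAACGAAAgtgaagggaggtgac
Isg15: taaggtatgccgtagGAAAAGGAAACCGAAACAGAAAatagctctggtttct
In all 4 only the ISRE core was found, with 2 copies in Ifit1, which begin 104 and 85 bases before the start, and 3 overlapping copies in Isg15. Over the 7 type I-like members with a window, 4 had the ISRE core and 2 the GAS core.

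The gamma-like windows include some with both motifs side by side. They are shown for Gbp2 (chr3:142620589-142620628, plus strand), Gbp7 (chr3:142530215-142530307, plus strand), Igtp (chr11:58199496-58199546, plus strand) and Tgtp1 (chr11:48992299-48992349, minus strand), followed by Irf1 (chr11:53769909-53769947, plus strand) and Cxcl10 (chr5:92349078-92349117, minus strand), which stand for the transcription factors and the chemokines.
Gbp2: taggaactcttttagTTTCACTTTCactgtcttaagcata
Gbp7: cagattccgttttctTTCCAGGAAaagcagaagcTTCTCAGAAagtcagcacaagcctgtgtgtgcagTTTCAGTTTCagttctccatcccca
Igtp: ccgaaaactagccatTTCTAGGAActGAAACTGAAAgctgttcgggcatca
Tgtp1: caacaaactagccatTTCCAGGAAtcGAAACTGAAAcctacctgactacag
Irf1: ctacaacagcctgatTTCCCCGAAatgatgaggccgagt
Cxcl10: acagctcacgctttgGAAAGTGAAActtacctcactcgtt
In Igtp and Tgtp1 a GAS core (TTCTAGGAA and TTCCAGGAA) is followed after 2 bases by the same ISRE core, GAAACTGAAA. Gbp2 and Cxcl10 held only an ISRE core and Irf1 only a GAS core. Of the 8 gamma-like members with a window, 7 held the ISRE core, 4 the GAS core and 4 both, and over all 29 members 6 held both. Cxcl9 held neither core in its window.

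Among the type I-like members, all 10 were higher in ileum over both strains, and all 10 also passed within WT mice and within Δchat mice (edgeR, adjusted p under 0.05, where 13.7 and 8.31% of all genes were higher). The Ifit proteins bind foreign RNA and stop its translation. Ifit1 measured 24, 17.3, 28.4 and 26 CPM in colon WT, 17.1, 25.7, 19.9 and 30.3 in the Δchat libraries of colon, 74, 67.9, 57.1 and 69.5 in ileum WT and 57.2, 71.3, 126 and 67.2 in the Δchat libraries of ileum. Every ileum library stood above every colon library, and ileum Δchat replicate 3 was the highest of all. The log2 fold change, ileum over colon, was 1.63 ± 0.17 (SE) with an adjusted p of 9.91e-06 (edgeR). Ifit2 measured 13.2, 14, 18.4 and 10.9 CPM in colon WT, 15.9, 13.4, 13.9 and 18.6 in the Δchat libraries of colon, 37.6, 38.7, 33.9 and 40.0 in ileum WT and 35.8, 43.5, 62.3 and 34.7 in the Δchat libraries of ileum. Its groups did not overlap between tissues either (log2 fold change 1.45 ± 0.13, adjusted p 4.16e-06, edgeR). Ifit3 ran from 11.6 to 24.8 CPM (median 15.5) in colon and from 27.1 to 77.5 CPM (median 35.1) in ileum, with a log2 fold change of 1.31. Ifit3 and Ifit3b are near-identical copies, so the split of reads between them is uncertain.

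The Oas enzymes make the short adenylate chains that activate RNase L, and Oasl1 and Oasl2 are their relatives. Oas3 was higher by 1.46 on the log2 scale, Oas2 by 1.21 and Oas1a by 1.08, the last one of a cluster of near-identical genes whose reads may be shared. Oasl2 measured 21.3, 18.9, 33.2 and 21.5 CPM in colon WT, 24.6, 21.5, 27.3 and 35.5 in the Δchat libraries of colon, 52.1, 39.1, 42.8 and 43.3 in ileum WT and 36.5, 51.9, 72.4 and 38.3 in the Δchat libraries of ileum. The tissues did not overlap for Oasl2, though colon Δchat replicate 4 came within about a CPM of the lowest ileum library. Its log2 fold change was 0.88 ± 0.16 (adjusted p 0.000707, edgeR), and that of Oasl1 was 0.56 ± 0.10, the smallest of the class. Mx1 and Mx2, GTPases that block viral replication, were higher by 0.77 and 0.89.

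The gamma-like members are GTPases that attack the vacuoles of intracellular microbes, with the T cell chemokine Cxcl9. All 10 were higher in ileum over both strains, all 10 in Δchat mice and 9 in WT mice, where Irgm1 missed the threshold (log2 fold change 0.41 ± 0.17, adjusted p 0.0829, edgeR). Cxcl9, which draws Cxcr3-bearing T and NK cells, measured 5.79, 9.18, 11.2 and 11.6 CPM in colon WT, 7.29, 14.2, 11.4 and 16.4 in the Δchat libraries of colon, 58.3, 69.6, 61.1 and 88.9 in ileum WT and 46.8, 116, 95.3 and 50.8 in the Δchat libraries of ileum. No ileum library came near the colon range, and the log2 fold change was 2.76 ± 0.23 (adjusted p 3.3e-06, edgeR). Igtp, an immunity-related GTPase that guards vacuole membranes, measured 37.7, 35.8, 47.8 and 38.5 CPM in colon WT, 39.7, 41.4, 31.6 and 39.8 in the Δchat libraries of colon, 76.6, 66.8, 68 and 76.3 in ileum WT and 74.9, 113, 98.3 and 72.8 in the Δchat libraries of ileum. Its tissues were also separate, at 1.03 ± 0.10 on the log2 scale (adjusted p 6.53e-06, edgeR). Tgtp1, a related GTPase, measured 61.9, 44.1, 69.6 and 54.6 CPM in colon WT, 51.6, 57.2, 53.1 and 81.7 in the Δchat libraries of colon, 161, 129, 108 and 145 in ileum WT and 129, 186, 201 and 130 in the Δchat libraries of ileum. Its log2 fold change was 1.32 ± 0.14, and its reads may be shared with Tgtp2, a near-identical copy that differed by 1.03.

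The guanylate-binding proteins coat pathogen vacuoles and bacteria. Gbp5, which also promotes inflammasome assembly, measured 28.8, 20.3, 31.7 and 28.6 CPM in colon WT, 23.5, 24.1, 18.8 and 32.4 in the Δchat libraries of colon, 63.8, 61.8, 59.5 and 70.7 in ileum WT and 37.8, 74.1, 67.5 and 47.1 in the Δchat libraries of ileum. The tissues were separate, and the log2 fold change was 1.20 ± 0.15 (adjusted p 4.28e-05, edgeR). Gbp4 measured 96.4, 85, 122 and 104 CPM in colon WT, 110, 123, 99.3 and 131 in the Δchat libraries of colon, 186, 171, 183 and 219 in ileum WT and 167, 296, 222 and 171 in the Δchat libraries of ileum. Replicate 2 of ileum Δchat was the highest for Gbp4, and the log2 fold change was 0.89 ± 0.12. Gbp7, Gbp2 and Gbp3 differed by 1.18, 1.05 and 0.99, with no overlap between tissues. For Gbp2 the gap was narrow, from 72.7 CPM in colon WT replicate 3 to 73.0 CPM in ileum Δchat replicate 1. Iigp1, which like the other immunity-related GTPases acts on pathogen vacuoles, measured 150, 121, 176 and 161 CPM in colon WT, 119, 122, 109 and 201 in the Δchat libraries of colon, 279, 252, 251 and 270 in ileum WT and 158, 281, 355 and 209 in the Δchat libraries of ileum. Its tissues overlapped through ileum Δchat replicate 1, which lay below 3 colon libraries, and the log2 fold change was 0.82 ± 0.16 (adjusted p 0.00131, edgeR). Irgm1, a regulator of the other immunity-related GTPases, had the smallest difference of the class at 0.54 ± 0.12.

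**Figure D2:**
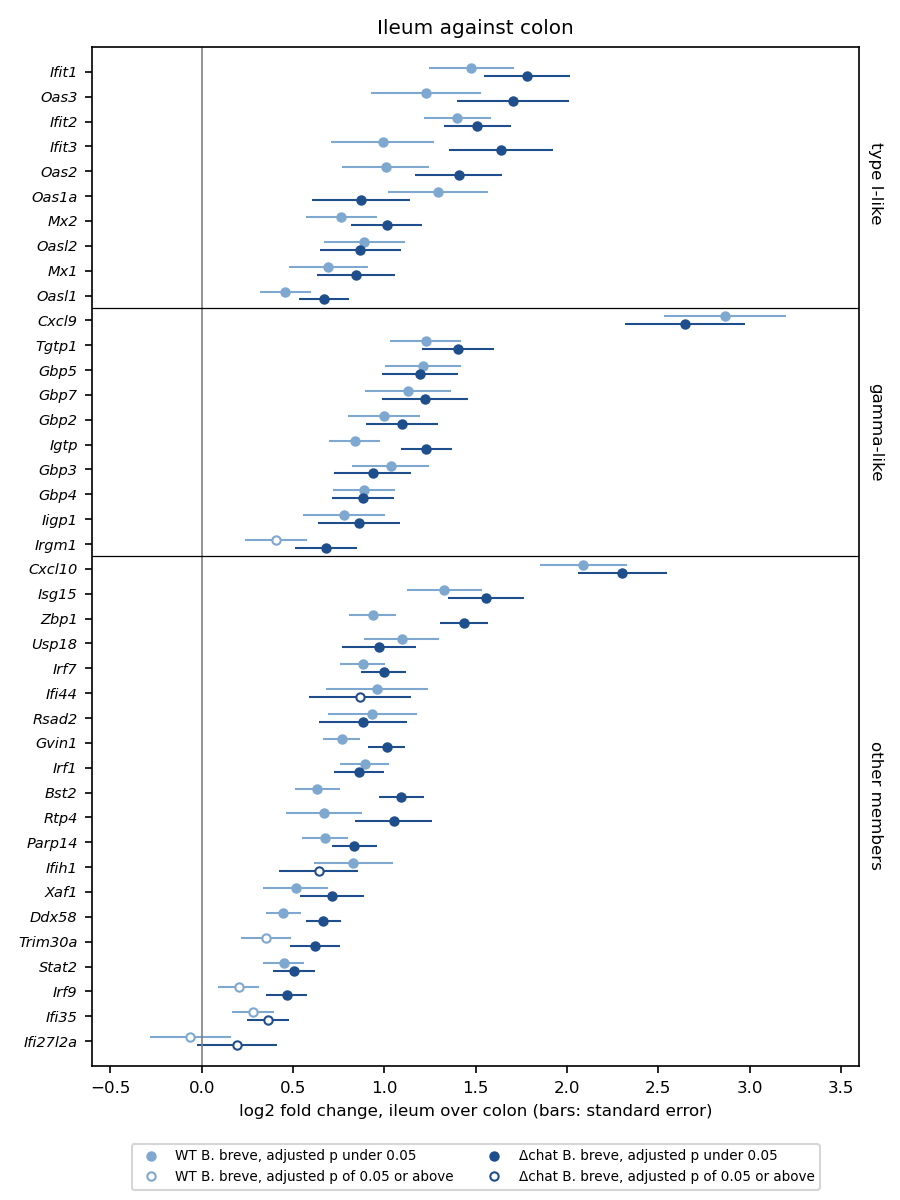
Log2 fold change, ileum over colon, of each of the 40 members (rows, in classes) with WT and with Δchat B. breve; points are the edgeR estimates, bars their standard errors, and filled points passed an adjusted p of 0.05. Cxcl9 and Cxcl10 lie farthest to the right in both strains, and Ifi27l2a lies at -0.06 and 0.19.

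Among the other members, the 4 transcription factors were all higher in ileum. Irf1, a factor induced strongly by interferon gamma, measured 397, 417, 504 and 462 CPM in colon WT, 506, 510, 459 and 552 in the Δchat libraries of colon, 864, 828, 680 and 955 in ileum WT and 784, 1109, 1038 and 755 in the Δchat libraries of ileum. The tissues did not overlap (log2 fold change 0.88 ± 0.10, adjusted p 1.78e-05, edgeR). Irf7, which drives the amplifying wave of type I interferon genes, measured 71, 71.2, 75.6 and 72.9 CPM in colon WT, 59.6, 55.3, 62.3 and 70.1 in the Δchat libraries of colon, 132, 154, 129 and 125 in ileum WT and 126, 97.6, 162 and 110 in the Δchat libraries of ileum. Its tissues were separate too, at 0.94 ± 0.09. Stat2 and Irf9, parts of the type I complex, differed less, by 0.48 ± 0.08 and 0.33 ± 0.08. Irf9 passed with Δchat (0.46 ± 0.11, adjusted p 0.0146) and not with WT (0.20 ± 0.11, adjusted p 0.196, edgeR), a difference between strains of 0.26 ± 0.16 that did not pass its own test (adjusted p 0.653).

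The sensors of foreign nucleic acid were all 3 higher over both strains. Zbp1, which senses Z-form nucleic acid and can start necroptosis, had the smallest p of all 40 members between tissues. It measured 19.2, 16.7, 16.8 and 14.5 CPM in colon WT, 11.8, 14.7, 10.7 and 8.92 in the Δchat libraries of colon, 34.7, 32.9, 30.7 and 31.6 in ileum WT and 29.4, 33.2, 32.8 and 29.7 in the Δchat libraries of ileum. The ileum libraries lay within a narrow band well above colon (log2 fold change 1.19 ± 0.09, adjusted p 1.57e-06, edgeR). Ddx58, which encodes the RNA sensor RIG-I, measured 70.8, 60.0, 67.8 and 62.3 CPM in colon WT, 55.4, 58.2, 48.8 and 60.4 in the Δchat libraries of colon, 87.5, 101, 87.9 and 83 in ileum WT and 79.9, 82.8, 105 and 86.5 in the Δchat libraries of ileum. It did not overlap between tissues, at 0.56 ± 0.07. Ifih1, which encodes the RNA sensor MDA5, measured 22.6, 21, 33.5 and 22.7 CPM in colon WT, 27, 20.7, 39.6 and 36.8 in the Δchat libraries of colon, 47.4, 38.9, 45.9 and 46.8 in ileum WT and 33.8, 56.3, 63.3 and 40.2 in the Δchat libraries of ileum. It overlapped, since colon Δchat replicates 3 and 4 reached the lower ileum libraries, and it passed over both strains (0.74 ± 0.15, adjusted p 0.00212) but not within Δchat mice (adjusted p 0.0649, edgeR).

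Of the 13 effectors and feedback genes, 12 were higher in ileum. Cxcl10, the chemokine that shares its receptor with Cxcl9, measured 41.4, 52, 47 and 79.3 CPM in colon WT, 33.5, 46, 40.0 and 60.5 in the Δchat libraries of colon, 217, 274, 199 and 252 in ileum WT and 176, 259, 290 and 165 in the Δchat libraries of ileum. The lowest ileum library was above every colon library, and the log2 fold change was 2.20 ± 0.17 (adjusted p 1.67e-06, edgeR). Isg15, a ubiquitin-like protein that is joined to other proteins, measured 24.5, 21.4, 32.6 and 27.1 CPM in colon WT, 17.7, 18.6, 19.1 and 28.9 in the Δchat libraries of colon, 68, 64.3, 64.5 and 70.6 in ileum WT and 47.9, 78.2, 79.6 and 43 in the Δchat libraries of ileum. It was separate between tissues, at 1.44 ± 0.15. Gvin1, a very large interferon-inducible GTPase, measured 242, 189, 249 and 248 CPM in colon WT, 161, 194, 163 and 188 in the Δchat libraries of colon, 417, 434, 379 and 365 in ileum WT and 335, 378, 366 and 348 in the Δchat libraries of ileum. Its log2 fold change was 0.89 ± 0.07, with all 8 ileum libraries above colon.

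Bst2 (tetherin), which holds budding virus at the cell surface, measured 110, 156, 138 and 126 CPM in colon WT, 67.7, 72.4, 84.5 and 91.5 in the Δchat libraries of colon, 213, 230, 207 and 180 in ileum WT and 164, 150, 204 and 157 in the Δchat libraries of ileum. Its tissues overlapped by 1 colon WT library and 1 ileum Δchat library, and its log2 fold change was 0.86 ± 0.09 (adjusted p 9.61e-06, edgeR). Parp14, an ADP-ribosyltransferase, measured 122, 92.7, 125 and 134 CPM in colon WT, 113, 113, 104 and 133 in the Δchat libraries of colon, 199, 190, 183 and 189 in ileum WT and 169, 232, 237 and 189 in the Δchat libraries of ileum. It did not overlap, at 0.75 ± 0.09. Usp18, which removes Isg15 and damps the type I receptor, was higher by 1.03, and Ifi44 and Rsad2 (viperin, an antiviral enzyme) by 0.91 each. Rtp4, a helper of receptor transport, differed by 0.86, Xaf1, which promotes cell death, by 0.61 and Trim30a, a member of the tripartite motif family, by 0.49. Ifi35 was the smallest difference that passed, at 0.32 ± 0.08 (adjusted p 0.00693, edgeR), and it passed in neither strain alone.

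Ifi27l2a did not follow the others. It measured 47.7, 39.4, 45.9 and 21 CPM in colon WT, 21, 23.6, 27.7 and 31.6 in the Δchat libraries of colon, 41.7, 36.1, 40.4 and 30.9 in ileum WT and 23.7, 25.5, 38.8 and 30.9 in the Δchat libraries of ileum. The groups overlapped throughout, and the log2 fold change between tissues was 0.07 ± 0.16 (adjusted p 0.765, edgeR). In WT mice it was -0.06 ± 0.22.

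Within each strain, 35 members were higher in ileum with WT and 36 with Δchat. Those that did not pass with WT were Irgm1, Irf9, Trim30a, Ifi35 and Ifi27l2a, and those that did not pass with Δchat were Ifih1, Ifi44, Ifi35 and Ifi27l2a. The WT count was 25, 24, 35 and 23 without WT replicate 1, 2, 3 and 4 in turn, where 6.66, 8.79, 12.6 and 8.22% of all genes were higher. The medians of the classes lay close together, at 1.0 (type I-like) and 1.02 (gamma-like) with WT and at 1.21 and 1.15 with Δchat.

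The ligands looked up were nearly silent apart from interferon gamma. They were 11 interferon genes, with Ifna1, Ifna2, Ifna4, Ifna5 and Ifna13 as the alphas, and no other interferon gene was looked up. Of the 11, 5 had no count in any library and 6 had some. Ifnb1, the gene of interferon beta, had 8 counts over all 16 libraries and at most 3 in one. Ifnk had 6 counts in all, Ifna13 and Ifnl2 had 5 each, and Ifna4 had 1. These libraries cannot resolve transcripts present at so few counts. Ifng measured 3.33, 6.88, 7.59 and 8.01 CPM in colon WT, 17.8, 9.79, 9.10 and 13.5 in the Δchat libraries of colon, 6.86, 15.9, 8.10 and 9.10 in ileum WT and 20.3, 33.4, 16.5 and 23.8 in the Δchat libraries of ileum. Ileum was above colon by 0.76 on the log2 scale (adjusted p 0.018, edgeR), with wide overlap between tissues. That call was lost in 4 of 18 alternative settings, where the log2 fold change ran down to -0.30.

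Receptors and kinases did not move as a block. Of 9 tested, 3 were higher in ileum (Ifngr1, Tyk2 and Ifnar2) and 3 lower (Ifngr2, Ifnlr1 and Jak1), of which Ifnar2 and Jak1 are named after their values were seen. Of all genes tested, 18.5% were higher and 19.7% lower. The receptor chains of interferon gamma went opposite ways: Ifngr1 was higher in ileum by 0.36 and Ifngr2 fell by 0.74. Ifnlr1, the receptor chain of interferon lambda, fell by 1.36.

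Of 18 regulators, 8 were higher and 1, the DNA sensor Tlr9 (named after its value was seen), was lower in ileum, beside 18.5 and 19.7% of all genes tested. The 4 with the smallest p were Sting1 (0.62), the signalling adaptor for cytosolic DNA, Socs1 (0.72), an inhibitor of Jak kinases, Cgas (0.69), which makes the ligand of Sting1, and the phosphatase Ptpn2 (0.29). Socs1 ran from 13.1 to 18.7 CPM (median 16.1) in colon and from 22.2 to 33.5 CPM (median 26.9) in ileum, with no overlap.

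Further induced genes outside the 40 were mostly higher in ileum too, where 18.5% of all genes tested were higher and 19.7% lower. Of 22 further type I-induced genes, 17 were higher and 3 lower in ileum (median log2 fold change 0.54), led by p by Dtx3l (0.66), Parp9 (0.54), Herc6 (0.59) and Cmpk2 (0.70). The 3 that were lower, named after their values were seen, were Samd9l, Ifi209 and Sp100. Of 17 further gamma-induced genes, 16 were higher and none lower (median 0.87), and Gbp11 alone did not pass. Gbp6 ran from 49.1 to 81.7 CPM (median 59.5) in colon and from 158 to 277 CPM (median 191) in ileum, and Gbp8 from 7.51 to 13.1 CPM (median 11.7) in colon and from 28.2 to 78.5 CPM (median 40.7) in ileum. Wars1 and Ifi47 differed by 0.87 and 1.06. Cxcl11, the third ligand of Cxcr3 and named after its values were seen, ran from 0 to 1.01 CPM (median 0.329) in colon and from 1.94 to 5.33 CPM (median 4.01) in ileum, at a log2 fold change of 3.29.

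Markers of several cell types differed between the tissues in the same direction. Of 11 macrophage and monocyte markers, 9 were higher in ileum and 1 (Vcan) lower. Their summed level was 480 to 648 CPM in colon WT, 490 to 925 CPM with Δchat in colon, 1426 to 1887 CPM in ileum WT and 942 to 3576 CPM with Δchat in ileum. All 11 T and NK cell markers were higher in ileum, with sums from 135 to 229 CPM in colon and from 322 to 451 CPM in ileum. Plasma cell markers were higher too (7 of 8), and B cell markers were lower (7 of 7). Plasmacytoid dendritic cell markers, cells known for type I interferon, gave 2 higher and 3 lower of 7 tested, and their sums overlapped between tissues. Dendritic cell markers gave 5 higher and 2 lower of 9, stromal and endothelial markers 2 higher and 4 lower of 9, and epithelial markers 1 higher and 0 lower of 12. Among all genes tested, 18.5% were higher and 19.7% lower in ileum. None of the listed markers was at 0 in every library.

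The score of either cell type as a covariate, chosen after these marker levels were seen, changed the calls. With the macrophage and monocyte score in the model, 15 members were called over both strains, with medians of 0.65 (type I-like) and 0.43 (gamma-like), and 822 genes were called in all against 5809 (38.2%) without it. This score ran from 5.11 to 6.08 in colon and from 5.89 to 7.44 in ileum, and overlapped only through ileum Δchat replicates 1 and 4. It can thus be told apart from the tissue only in small part. With the T and NK cell score, none of the 40 was called (29 had an unadjusted p under 0.05) and 14 genes in all were, while the medians were 1.39 and 0.89. That score ran from 3.37 to 4.03 in colon and from 4.51 to 4.91 in ileum (mean log2 CPM), with no overlap, so its part and that of the tissue cannot be told apart in these libraries.

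**Figure D3:**
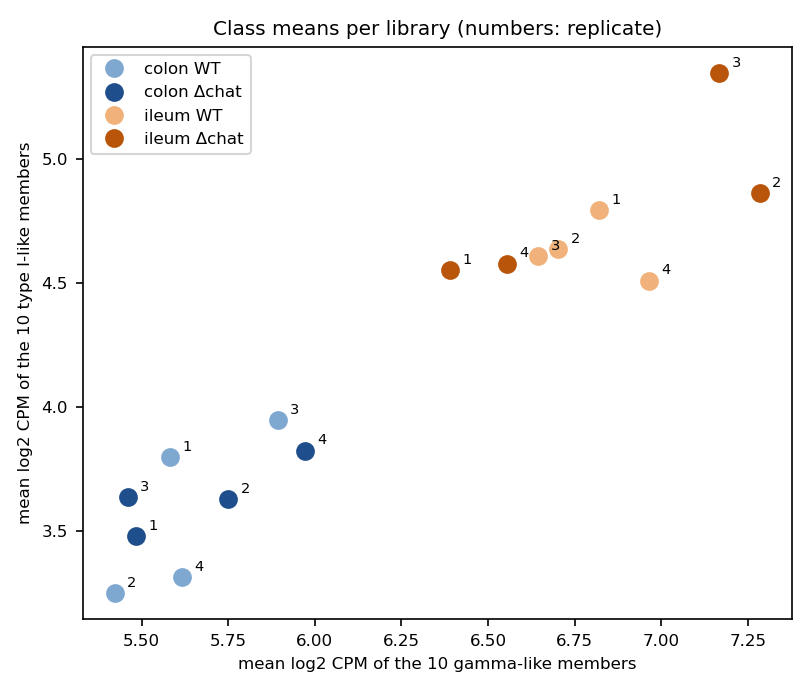
Mean log2 CPM of the 10 gamma-like members (x axis) and of the 10 type I-like members (y axis) in each of the 16 libraries, labelled by replicate number. The colon libraries lie between 5.42 and 5.97 on the x axis and the ileum libraries between 6.39 and 7.28, and ileum Δchat replicate 3 lies highest on the y axis at 5.35.

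Both class means were higher in every ileum library than in every colon library. The mean log2 CPM of the type I-like members was 3.58 ± 0.35 (SD, n = 4) in colon WT, 3.64 ± 0.14 with Δchat in colon, 4.64 ± 0.12 in ileum WT and 4.84 ± 0.37 with Δchat in ileum. That of the gamma-like members was 5.63 ± 0.20, 5.67 ± 0.24, 6.78 ± 0.14 and 6.85 ± 0.44 in the same order. In ileum Δchat, replicate 3 had the highest value for 9 of the 10 type I-like members and replicate 2 for 7 of the 10 gamma-like members. Replicate 1 was the lowest for 9 of the 10 gamma-like members.

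In ileum Δchat, replicates 2 and 3 were above replicates 1 and 4 in both class means. The type I-like mean less the gamma-like mean, on the log2 scale, ran from -2.30 to -1.78 in colon WT, from -2.15 to -1.82 in colon Δchat, from -2.46 to -2.02 in ileum WT and from -2.42 to -1.82 in ileum Δchat. These ranges overlapped in all 4 groups. Replicate 2 of ileum Δchat also held the highest macrophage and monocyte sum of all libraries (3576 CPM). Replicates 1, 3 and 4 were at 1230, 1772 and 942 CPM. The B cell marker sums were 1626, 345, 325 and 1405 CPM in replicates 1 to 4. Plasma cell, plasmacytoid dendritic cell and epithelial sums were likewise lower in replicates 2 and 3 than in 1 and 4. Sums of dendritic, T and NK, and stromal and endothelial markers were not split in this way. The part of these cells in the spread between replicates was not tested. The median SD of the members among libraries was 0.38 in ileum Δchat, against 0.25 over all genes, and 0.15 against 0.16 in ileum WT. In colon, WT replicate 3 was the highest for 28 of the 40 members and Δchat replicate 4 for 30.

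The comparison of Δchat with WT asks whether acetylcholine made by the bacterium alters these genes. In colon no member passed (edgeR, adjusted p under 0.05), and 1 of 14660 genes did (0.00682%). At an unadjusted p under 0.05, 5 members passed, beside 13.3% of all genes tested. The median log2 fold change, Δchat over WT, was -0.04 over the members, 0.04 over the type I-like and 0.10 over the gamma-like members, beside 0.01 over all genes. The fold changes ran from -0.74 to 0.55 on the log2 scale.

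Bst2 had the smallest p in colon. Its Δchat libraries, at 67.7, 72.4, 84.5 and 91.5 CPM, all lay below the WT libraries, at 110, 156, 138 and 126 CPM. The log2 fold change was -0.74 ± 0.13 with an adjusted p of 0.155 (edgeR), and over 19 alternative settings the adjusted p ran from 9.37e-05 with DESeq2, which called 308 of 14660 genes, to 0.396. Both Bst2 and Irf7 had all 4 Δchat libraries below all 4 WT libraries in colon, which 3.95% of all genes did. For Irf7 the values were 59.6, 55.3, 62.3 and 70.1 CPM against 71, 71.2, 75.6 and 72.9 CPM (log2 fold change -0.22 ± 0.09, adjusted p 0.339, edgeR). No member lay wholly above in colon, against 3.59% of all genes.

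The other members with an unadjusted p under 0.05 in colon were Gvin1 (log2 fold change -0.39 ± 0.12, adjusted p 0.313), Zbp1 (-0.54 ± 0.17, adjusted p 0.313) and Ddx58 (-0.22 ± 0.09, adjusted p 0.36, edgeR). All 3 overlapped between strains by 1 library or more. No marker of the listed cell types passed the adjusted threshold between the strains in colon. At an unadjusted p under 0.05 (edgeR), where 13.3% of all genes tested stood, some markers of each type below stood too. They were 7 of 8 plasma cell markers (median log2 fold change -0.92), 10 of 11 macrophage and monocyte markers (0.68), 11 of 11 epithelial markers tested (3.20), 5 of 9 dendritic cell markers (0.43), 3 of 7 plasmacytoid dendritic cell markers tested (-0.52), 2 of 7 B cell markers (-0.54), 1 of 11 T and NK cell markers (0.11) and 1 of 9 stromal and endothelial markers (0.12). Bst2 is known in plasma cells and, in mice, in plasmacytoid dendritic cells. The plasma cell markers summed to 3645 to 5019 CPM with Δchat in colon and to 6757 to 12655 CPM with WT, without overlap. The plasmacytoid dendritic cell markers summed to 322 to 545 CPM with Δchat and to 374 to 546 CPM with WT, with overlap. Their part in the Bst2 and Irf7 values was not tested.

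**Figure D4:**
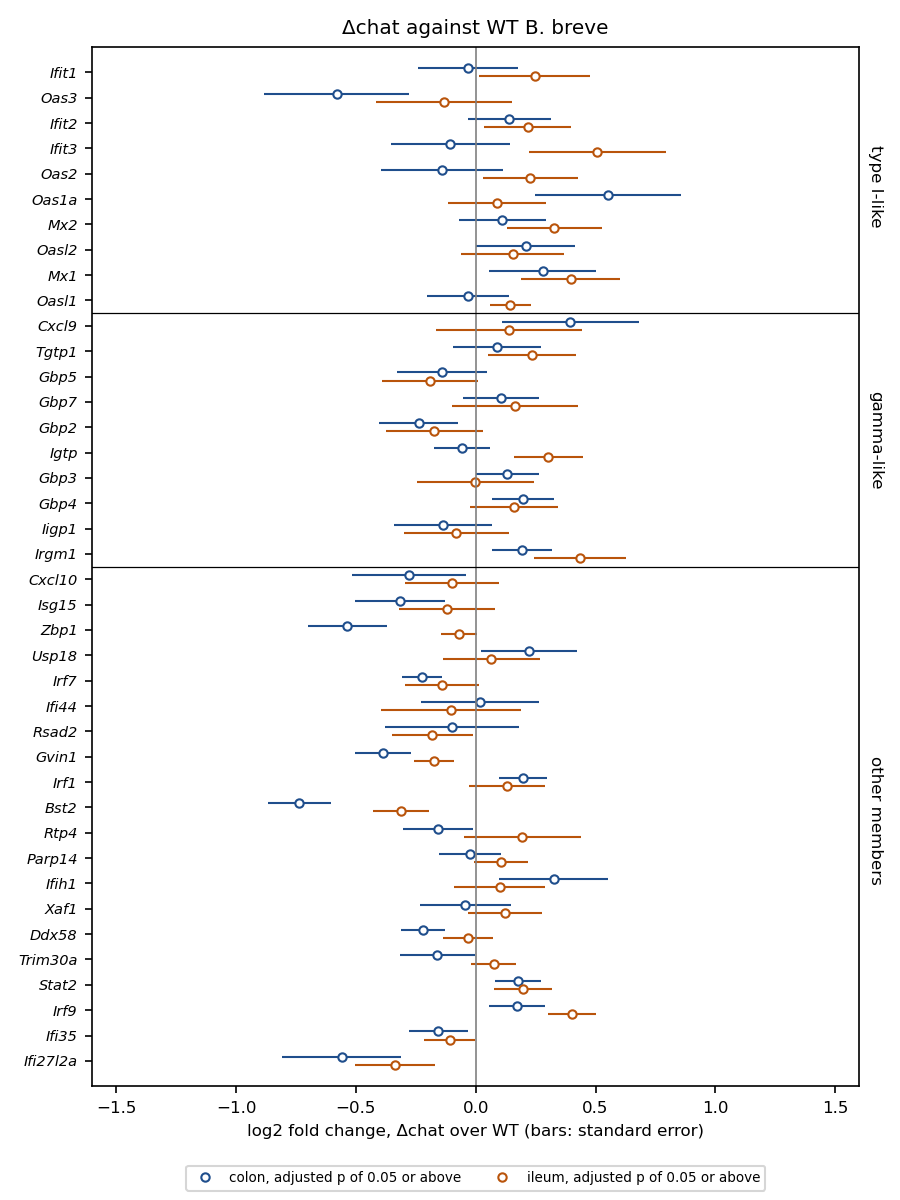
Log2 fold change, Δchat over WT, of each member in colon and in ileum (edgeR estimates with standard errors). All points are open, since none passed an adjusted p of 0.05; Bst2 in colon lies farthest to the left at -0.74.

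In ileum no member passed either, where 3 of 14496 genes did (0.0207%), and 2 members had an unadjusted p under 0.05, beside 10.9% of all genes. The median log2 fold change was 0.10 over the members, 0.22 over the type I-like, of which 9 of 10 were above 0, and 0.15 over the gamma-like members, beside 0.01 over all genes. These medians leaned on single libraries. Without Δchat replicate 3 the type I-like median was 0.03, and without Δchat replicate 2 the gamma-like median was -0.12.

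Irf9 had the smallest p in ileum and was the single member with no overlap there. No member lay wholly below WT, against 3.66% of all genes. Its Δchat libraries were at 158, 175, 180 and 167 CPM and its WT libraries at 142, 108, 121 and 139 CPM, and 3.79% of all genes had Δchat wholly above WT. The log2 fold change was 0.40 ± 0.10 (p 0.0035, adjusted p 0.216, edgeR), and its adjusted p over 19 alternatives ran from 0.0162 with DESeq2, which called 375 of 14496 genes, to 0.521. Bst2 was at 164, 150, 204 and 157 CPM with Δchat and 213, 230, 207 and 180 CPM with WT, which overlapped (log2 fold change -0.31 ± 0.12, adjusted p 0.383). Rsad2 passed without Δchat replicate 3, the highest of its group, at -0.40 (adjusted p 0.0394, edgeR), where 247 of 14575 genes were called, and was at -0.18 with all libraries (adjusted p 0.723).

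The strain effect in ileum less that in colon passed for no member (9 of 15198 genes, 0.0592%), and 2 members had an unadjusted p under 0.05, beside 7.72% of all genes. They were Zbp1 (0.50 ± 0.18) and Bst2 (0.46 ± 0.17), both less negative in ileum than in colon, and DESeq2 called 0 members as well. The medians were 0.23 for the type I-like and 0.09 for the gamma-like members, and without Δchat replicate 3 the former was -0.054.

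For Ifng the Δchat libraries lay wholly above the WT libraries in both tissues, as for 3.59% of all genes tested in colon and 3.79% in ileum. Its Δchat libraries were at 9.10 to 17.8 CPM against 3.33 to 8.01 CPM in colon and at 16.5 to 33.4 CPM against 6.86 to 15.9 CPM in ileum. Its log2 fold change was 0.97 in colon (adjusted p 0.319) and 1.22 in ileum (adjusted p 0.207, edgeR), and neither passed. In ileum it passed under 2 of 19 alternatives, DESeq2 and limma-voom with quality weights. Cxcl9, a target of interferon gamma, differed by 0.39 ± 0.29 and 0.14 ± 0.31 in the same comparisons, with overlap between strains in both tissues. Irf1 differed by 0.20 ± 0.10 and 0.13 ± 0.16, and Gbp2 by -0.24 ± 0.16 and -0.17 ± 0.20. None of the 9 receptors and kinases, the 18 regulators or the further induced genes tested passed between strains in either tissue. At an unadjusted p under 0.05 stood 0 of 9 receptors and kinases and 1 of 18 regulators in colon, beside 13.3% of all genes, and 4 of 9 and 2 of 18 in ileum, beside 10.9%. Of the further genes, 1 of 22 type I-induced and 1 of 16 gamma-induced genes stood there in colon, and 4 of 22 and 0 of 17 in ileum.

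**Figure D5:**
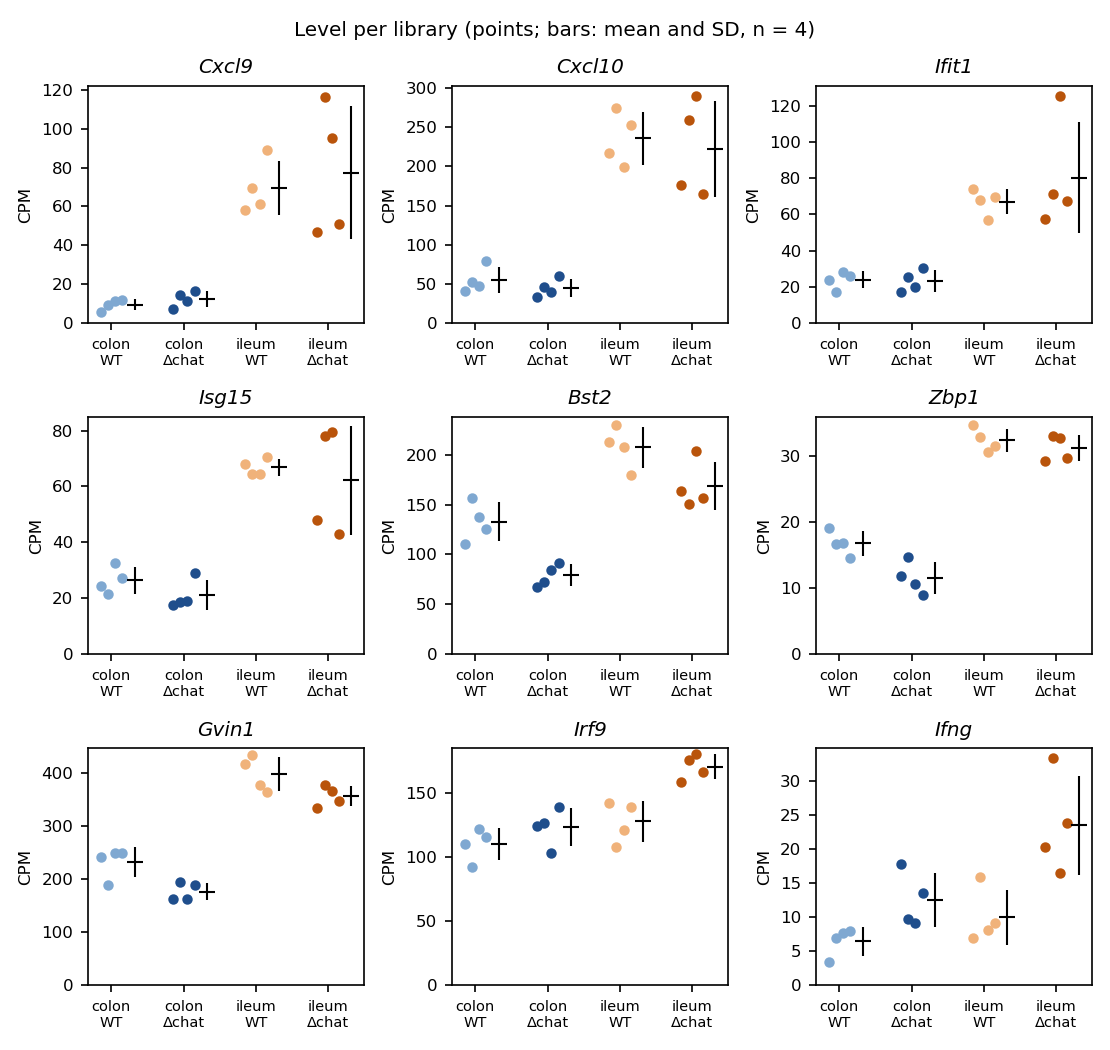
CPM in each of the 16 libraries of Cxcl9, Cxcl10, Ifit1, Isg15, Bst2, Zbp1, Gvin1, Irf9 and Ifng, by group; each point is 1 library and each axis starts at 0. Ileum points lie above colon points for Cxcl9, Cxcl10, Ifit1, Isg15, Zbp1 and Gvin1, while colon Δchat points lie below colon WT points for Bst2 and Δchat points above WT points for Ifng in both tissues.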

How the data were processed

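The authors deposited estimated counts per gene from Salmon 1.4.0 after cutadapt 5.0, with GRCm39 named as the build, per the submitters' processing notes. The counting of strand is not given in the sources used here. The estimated counts, of which 34.8 to 40.7% per library were not whole, were rounded here. Of 35647 identifiers, 35105 matched a symbol, and the other 542 took up to 0.105% of a library's counts. Libraries were grouped by their titles. None was left out and none was a copy of another (chi-square per degree of freedom of replicate pairs 26.7 to 98.4).

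Genes were filtered with filterByExpr, scaled by TMM and fitted with the robust quasi-likelihood test of edgeR 4.0.16 (R 4.3.3), 2-sided, adjusted after Benjamini-Hochberg across every gene in the fit. Strains were compared in 8 libraries of a tissue, and tissues and the difference between strain effects in 1 fit of 16 libraries. That fit held no term for mouse, so colon and ileum of the same mouse were treated as independent. A block by mouse was an alternative. Printed CPM carry the scaling over 16 libraries, and log2 CPM a prior count of 2. Each standard error was derived as the absolute log2 fold change divided by the square root of the quasi-likelihood F statistic. Class medians, class means and motif counts were not tested. The members and lists were chosen with earlier results of these data known, so no count over them is independent support. Every member is accounted for. Values in every library are given for the members with the smallest p (14 of them), those with the highest mean level in a class and a few the text singles out. In the other lists 1 gene is not reported here. Of these lists, up to 4 called genes by p are named, and any further gene is said to have been chosen after its values were seen.

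Alternatives were RLE factors, no filter and a filter of 1 CPM in 4 libraries, DESeq2 1.42.0, limma-voom with quality weights (limma 3.58.1), removal of 424 immunoglobulin genes, an epithelial score, replicate blocks, 1 fit for both tissues, wider classes, a prior count of 0.5, each replicate left out, and, chosen after seeing the data, the scores of 2 further cell types. Deviations from group means correlated between -0.18 and 0.27 for colon and ileum of 1 mouse (3 of 8 pairs over 0.1). The pairing comes from the design, which gives 4 mice per group, and from library names that share a number.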

Additional observations from a re-analysis of the deposited data

Results flagged for a closer look

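In 8 of 160 sets of 4 libraries (40 members in 4 groups), 1 library stood apart from the other 3 by Dixon's criterion at the 95% level, which chance alone flags in about 1 of 20 sets. Mx2 reached 16.1 CPM and Ifih1 33.5 CPM in colon WT replicate 3, the highest of that group. Gvin1 was lowest in colon WT replicate 2, at 189 CPM. In colon Δchat, Igtp was lowest in replicate 3, at 31.6 CPM, and Isg15 highest in replicate 4, at 28.9 CPM. In ileum WT, Gbp3 was highest in replicate 4, at 114 CPM, and Ifih1 lowest in replicate 2, at 38.9 CPM. Rsad2, the antiviral enzyme viperin, was highest in ileum Δchat replicate 3, at 46.5 CPM.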

How the results depend on the processing

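The count of 39 members higher in ileum over both strains was the same under every alternative except the macrophage and monocyte score and the T and NK cell score. It was 39 without each mouse in turn, where 15.2 to 19.6% of all genes were higher. With the macrophage and monocyte score, 15 members were called over both strains, 2 with WT and 19 with Δchat. Of the 15198 genes tested, 492, 126 and 538 were higher in the same order, against 2809, 2079 and 1263 without the score. With it, the type I-like medians were 0.65, 0.58 and 0.91 and the gamma-like medians 0.43, 0.29 and 0.61. Ifi27l2a was then at -0.049 over both strains. With the T and NK cell score, 0 members were called in each of these comparisons, where 0.079, 0.349 and 0.0329% of all genes were higher. Without 1 mouse in turn, 23 to 38 members were called with WT and 27 to 36 with Δchat. Of all genes, 6.66 to 17.4% were higher with WT and 5 to 7.54% with Δchat in these fits. With the wider classes the type I-like median with Δchat was 0.87. Between strains, DESeq2 called 1 member in colon (Bst2, among 308 genes of 14660) and 1 in ileum (Irf9, among 375 of 14496). The fit of both tissues called 1 in colon (Bst2, among 10 of 15198 genes). Without 1 library in turn, 0 members were called in colon and 0 to 1 in ileum (Rsad2 without Δchat replicate 3, among 247 of 14575 genes). With limma-voom the gamma-like median was -0.22 for the strain in ileum and -0.26 for the difference between tissues. The type I-like median of that difference ran from -0.054 to 0.35 without 1 mouse in turn. The cause of these changes was not tested. With a replicate block by mouse, 39 members were called over both strains, 34 with WT and 35 with Δchat, where 17.5, 12.7 and 7.73% of all genes were higher. For the difference, 0 members were called in that setting, where 3 of 15198 genes were. With a block for the replicate number, 0 members were called between strains, where 0 of all genes were. The number does not pair mice across strains, with correlations of -0.27 to 0.33. With 4 libraries a group, small strain effects may have gone undetected.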
